A study of Mus musculus with 6 samples.

Results

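The TRIM genes encode a large family of ubiquitin ligases, and their messenger RNAs were followed here in mouse embryonic stem cells (ESCs) given a microRNA or an siRNA. Members were every entry of the deposited expression table whose gene symbol begins with Trim followed by a digit, which gave 47 of 13743 entries. A TRIM protein carries at its start a RING finger, which binds a ubiquitin-conjugating enzyme, then B-box zinc fingers and a coiled coil through which the proteins pair. The end of the protein differs between members and sets what they bind. Many members with a PRY-SPRY end act in innate immunity, some of them by blocking retroviruses, whereas the members with a PHD finger and a bromodomain work on chromatin, where TRIM28 silences endogenous retroviruses in ESCs.

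All 6 libraries came from Dgcr8-/- ESCs of the strain given as C57/129. Dgcr8 is needed to make canonical microRNAs, so cells without it have almost none of their own. There were 3 groups of 2 libraries, collected 48 h after transfection. The group miR-294 received a mimic of miR-294, a member of the main microRNA cluster of mouse ESCs, and the group siMbd2 received an siRNA against Mbd2, which encodes a reader of methylated DNA. Mimics and siRNAs were used at 50 nM. The third group, CTR, is called mock in the table, and no source used here says what its wells received. Whether the libraries of a group came from separate cultures is not stated, so every p-value below measures only the spread between these libraries. Each value is an RPKM, that is, a read number divided by transcript length and by library size, so levels of different genes can be compared per length. The table gives no read counts, and the depth of the libraries is therefore unknown.

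The targeted gene was read first. Mbd2 stood at 26.8 and 27.9 RPKM in CTR, at 7.33 and 6.34 RPKM in siMbd2 and at 11.3 and 12.3 RPKM in miR-294. Its level was thus also lower in both miR-294 libraries than in both CTR libraries. Dgcr8, deleted in all groups, was listed at 6.66 to 8.44 RPKM, and a value for the whole gene cannot show whether the deleted part is present. All 8 ESC markers examined were present, between 28.4 and 4715 RPKM, but their levels were not equal across groups. By the test described below, Nanog, Sox2, Tfcp2l1 and Dppa5a fell with miR-294, Pou5f1 and Zfp42 rose, and Esrrb and Klf4 did not pass. With siMbd2 Nanog and Sox2 fell, Pou5f1, Esrrb, Tfcp2l1 and Dppa5a rose, and Zfp42 and Klf4 did not pass. Feeder and endoderm markers were low. Cd68, at a mean of 15.9 RPKM over the 6 libraries, stood above the median mean of all entries, 8.33 RPKM. The neural markers stood below it by their means, the highest being Pax6 at 7.83 RPKM, with single libraries up to 10.2. The summed level of the 3 of 7 feeder fibroblast markers with an entry was 2.26 to 2.38 RPKM in CTR, 5.35 to 5.48 in miR-294 and 1.66 to 1.79 in siMbd2. The 3 neural markers summed to 22.2 and 23.1 RPKM in CTR, 9.91 and 10.4 with miR-294 and 16.8 and 14.8 with siMbd2. The 4 primitive endoderm markers summed to 3.39 and 2.84 RPKM in CTR, 1.95 and 1.98 with miR-294 and 2.44 and 2.10 with siMbd2. Of these, 1 was listed at 0 in a siMbd2 library. With miR-294 the mean of Gata4 was lower than in CTR (0.94 against 2.77 RPKM) and that of Gata6 higher (0.735 against 0.165). Of 3 leukocyte markers only Cd68 had an entry, at 13.9 to 18.5 RPKM. The part of these cell type markers in the results below was not tested. The CTR libraries differed from each other more than those of the other groups, with a median absolute log2 difference of 0.135 over the members, against 0.07 in miR-294 and 0.06 in siMbd2.

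Most TRIM mRNAs were present at low to moderate levels. The mean over the 6 libraries was at least 10 RPKM for 18 members, 1 to 10 RPKM for 16 and under 1 RPKM for 13. The median member stood at 6.15 RPKM, against 8.33 RPKM for the median of all entries. Trim28 was far above the rest: its mean was 460.2 RPKM, and it alone made up 39.5% and 36.2% of the summed RPKM of all members in CTR. That share was 52.7% and 52.4% with miR-294 and 39.6% and 39.1% with siMbd2. Next in order came Trim6 at a mean of 61.6 RPKM, Trim61 at 54.3, Trim27 at 54.0 and Trim24. These neighbours in the order overlapped in their single libraries and cannot be ranked beyond their spread.

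**Figure D1:**
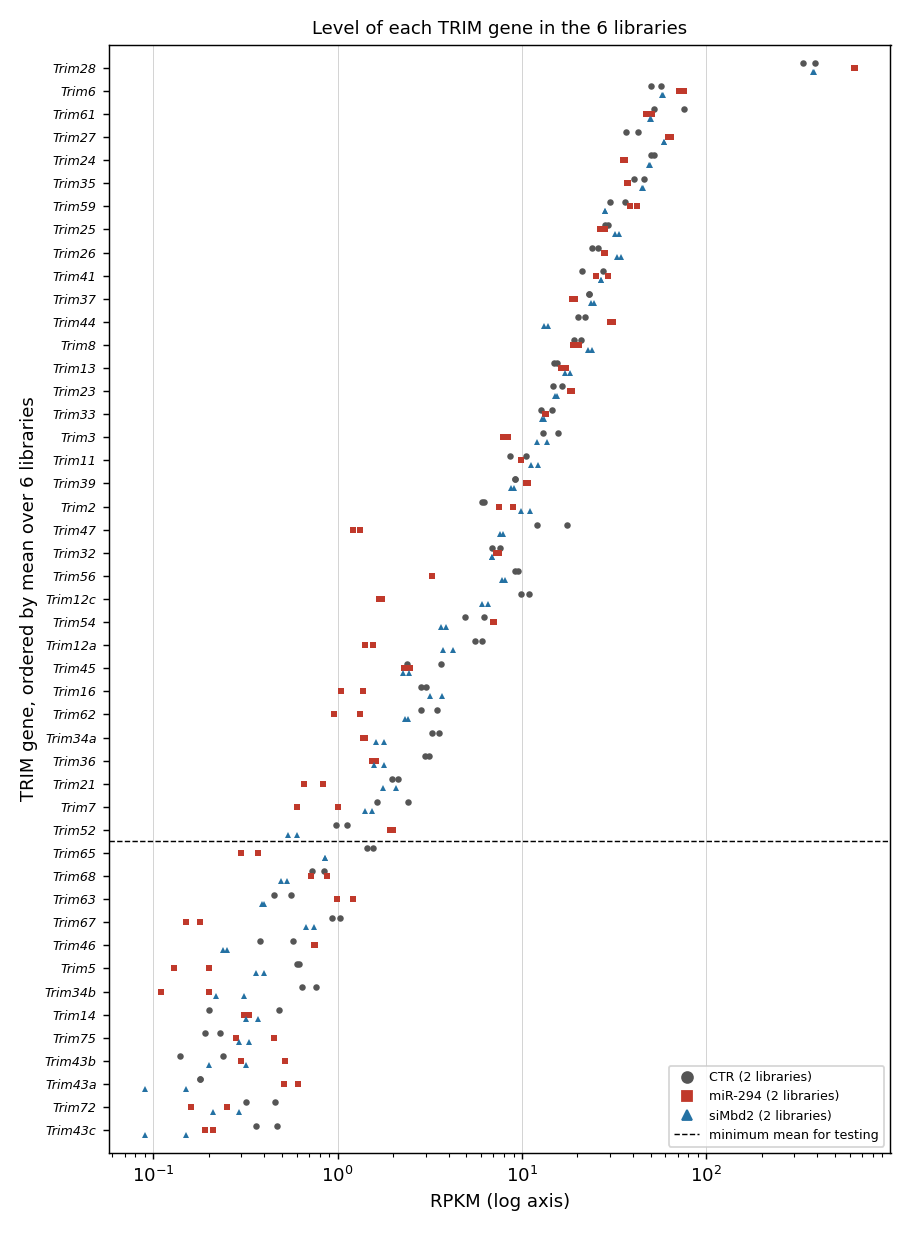
Level of each TRIM member, as RPKM on a log axis, in the 2 libraries of CTR, miR-294 and siMbd2, with members ordered by their mean. Trim28 stands apart at 332.6 to 640.8 RPKM, and the 13 members with a mean under 1 RPKM lie between 0.09 and 1.55.

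Differences were tested on log2(RPKM + 1), a scale on which the fold changes of weakly expressed genes come out too small. The 11428 genes averaging 1 RPKM or more entered a single limma fit of the 3 groups, and 34 of the 47 members were among them. Of the members nearest this limit, Trim52 was inside it at a mean of 1.19 RPKM and Trim65 outside it at 0.895. A member is said to have risen or fallen where its Benjamini-Hochberg adjusted p over all tested genes was under 0.05. With 2 libraries a group, the smallest p an exact permutation test allows is 0.333, so the calls rest on the estimate of spread that limma shares across genes. Errors after ± are SDs of 2 libraries and SE is the standard error of the log2 difference. In bulk RNA, fewer cells of a type and less RNA per cell cannot be told apart.

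With miR-294, 9 of the 34 tested members rose, 14 fell and 11 did not pass the test. Among all tested genes 27.7% rose and 36.8% fell in this comparison, so the members' shares of 26.5% and 41.2% lay close to the background. The falls were larger than the rises: 9 of the members that fell were at least 2-fold lower by the ratio of mean RPKM, and 0 of those that rose were at least 2-fold higher. Over all genes 9.17% were called lower and at least 2-fold, and 3.28% higher and at least 2-fold. The median log2 difference of the members was -0.05, against -0.08 for all tested genes, and it turned to 0.02 with median-of-ratios scaling or quantile normalization. With siMbd2, 3 members rose, 8 fell and 23 did not pass, or 8.82% and 23.5%, against 19.5% and 14.9% of all genes. These counts depended on single libraries: more members rose without CTR replicate 1, and fewer fell without siMbd2 replicate 2. No tested member was called and changed as much as 2-fold with siMbd2, and of all genes 1.06% were so much higher and 1.13% so much lower. Both comparisons use the same CTR libraries, so the groups were also compared directly. Here 8 members were higher and 16 lower in miR-294 than in siMbd2, or 23.5% and 47.1%, against 21.9% and 35.5% of all genes. Fewer were lower without miR-294 replicate 2, a run that leaves a single library in that group.

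**Figure D2:**
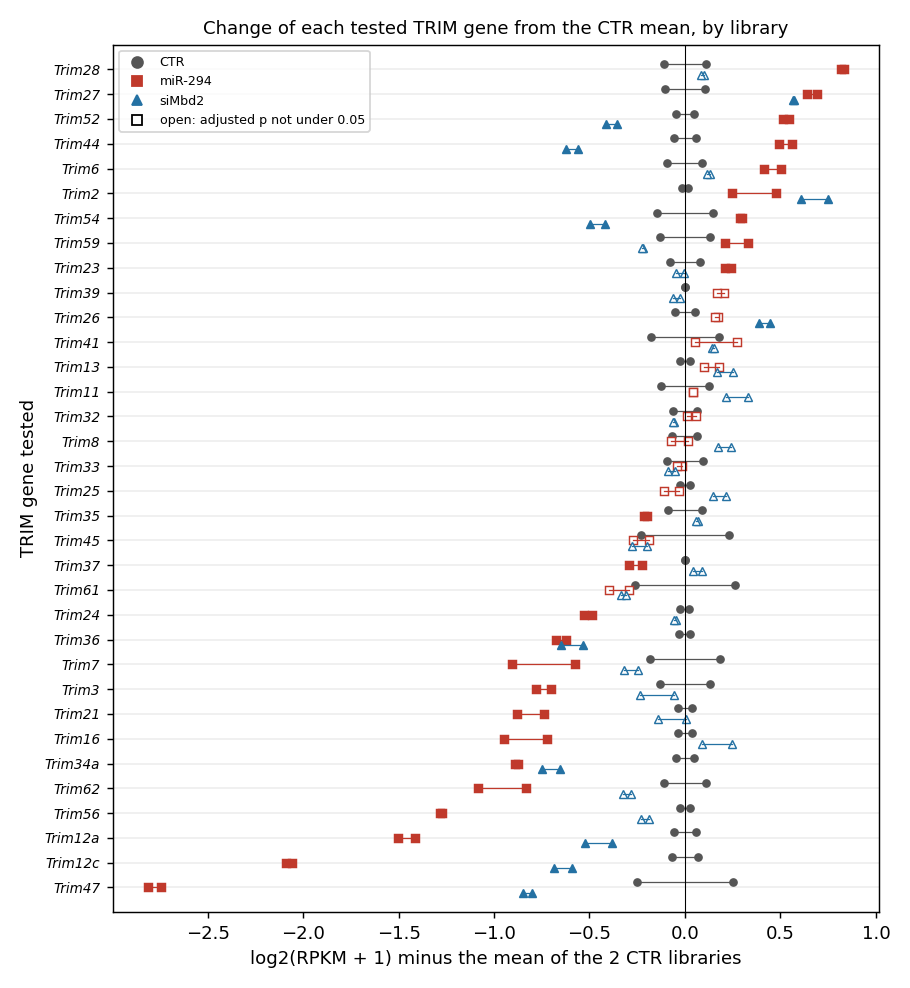
Difference in log2(RPKM + 1) of each tested TRIM member between each library of CTR, miR-294 and siMbd2 and the mean of the CTR libraries. A line joins the libraries of a group and is not a standard error. Filled points mark an adjusted p under 0.05. By group mean, the lowest member with miR-294 is Trim47 at -2.78 and the highest is Trim28 at 0.82.

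The largest falls were among the PRY-SPRY members. Trim47, a ubiquitin ligase of this class at chr11:116105752-116127210 on the minus strand (GRCm38), was at 17.5 and 12.1 RPKM in CTR, 1.32 and 1.21 with miR-294 and 7.62 and 7.91 with siMbd2. The groups did not overlap, and siMbd2 lay between the others. The mean fell from 14.8 ± 3.83 to 1.26 ± 0.08 RPKM with miR-294, a ratio of 0.0856 (log2 difference -2.78, SE 0.146, adjusted p 2.98e-06). With siMbd2 the ratio was 0.525 (log2 difference -0.83, adjusted p 0.00407), and the direct difference between the treatments was -1.95 (adjusted p 2.09e-05). Trim65, a ligase that acts on the RNA sensor MDA5, is the neighbour of Trim47. Its annotated body overlaps that of Trim47 by 5365 bases on the same strand, so reads in the overlap can be counted to either, although the transcripts compared shared no stretch of 50 bases. It was listed at 1.45 and 1.55 RPKM in CTR, 0.37 and 0.30 in miR-294 and 0.85 in both siMbd2 libraries, under the limit for testing. Of the coding genes on either side of the pair, Wbp2 fell with both treatments, by 0.73 on the log2 scale with miR-294 and by 0.33 with siMbd2, and Mrpl38 did not pass with miR-294 and rose by 0.49 with siMbd2.

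A block of 6 members lies on chromosome 7 between 104218793 and 104353362 (GRCm38), in the order Trim6, Trim34a, Trim5, Trim12a, Trim34b and Trim12c. The human relatives of this block include TRIM5, known for blocking incoming retroviruses. Trim12c was at 10.97 and 9.87 RPKM in CTR, 1.74 and 1.68 with miR-294 and 6.56 and 6.10 with siMbd2. It fell to a ratio of 0.164 with miR-294 (log2 difference -2.07, SE 0.0896, adjusted p 1.78e-06) and fell less with siMbd2 (-0.64, adjusted p 0.00158), and the direct difference was -1.44 (adjusted p 9.5e-06). Trim12a had the same order of groups, with 5.56 and 6.10 RPKM in CTR, 1.41 and 1.56 with miR-294 and 4.24 and 3.74 with siMbd2. Its log2 difference was -1.46 with miR-294 (adjusted p 7.48e-06) and -0.45 with siMbd2 (adjusted p 0.00861, or 0.0857 without siMbd2 replicate 2).

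Trim34a differed from these genes in that the treatments had similar values. It stood at 3.54 and 3.26 RPKM in CTR, 1.40 and 1.37 with miR-294 and 1.62 and 1.79 with siMbd2. It fell with miR-294 (-0.88, adjusted p 5.90e-05) and with siMbd2 (-0.70, adjusted p 0.00122), and the direct difference of -0.18 (SE 0.0906) did not pass the test (adjusted p 0.120). Trim5 and Trim34b had means under 1 RPKM. Trim5 was listed at 0.60 and 0.62 RPKM in CTR and 0.13 and 0.20 in miR-294, and Trim34b at 0.64 and 0.76 against 0.11 and 0.20. Trim6, at the edge of the block, went the other way. It is a ligase reported to act on Myc in mouse ESCs, and it rose from 56.7 and 49.9 RPKM in CTR to 75.9 and 71.3 in miR-294 (log2 difference 0.46, SE 0.0721, adjusted p 6.14e-04), with 58.3 and 57.8 in siMbd2 (0.12, adjusted p 0.214). The start of Trim34a lies 9304 bases past the end of Trim6 on the same strand. Several genes of the block are near copies: 59.0% of the 50-base stretches of Trim34b also occur in Trim34a, 24.2% of those of Trim12c occur in Trim5, and 17.9% of those of Trim12a in Trim5. Reads from such stretches may have been assigned to any copy, so the split among these genes is uncertain. Trim6 and Trim34a shared no such stretch.

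**Figure D3:**
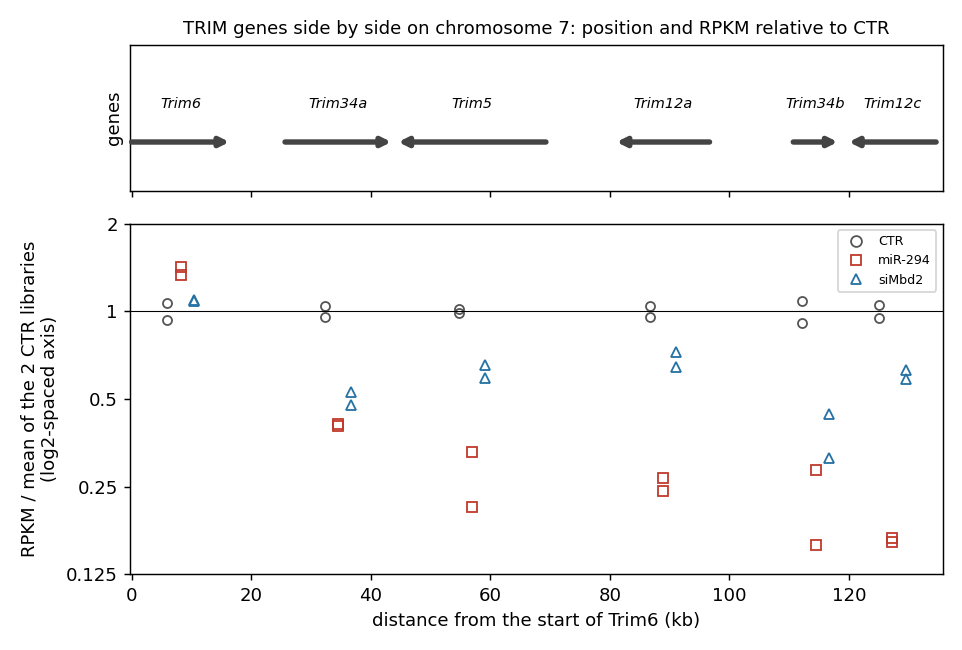
Genes of the chromosome 7 block drawn to scale by distance from the start of Trim6, with strand. Below them is the RPKM of each library divided by the gene's mean RPKM in the CTR libraries, on a log axis. The 5 genes past Trim6 lie lower in both miR-294 libraries than in both CTR libraries, while Trim6 lies higher.

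The promoters of the members were searched for a short element known from genes of the interferon response, GAAA followed by any 2 bases and GAAA. Whether it has any part in the changes was not tested. It was looked for on both strands from 250 bases before to 50 bases after the start sites of the RefSeq promoter table (GRCm38.p6). The element was found for 3.99% of the 27025 genes with a listed promoter, for 3.37% of the 8657 tested genes with an entry and for 6 of the 27 tested members with an entry (22.2%). A gene with several promoters or overlapping copies was counted once. Of these 6, Trim12a, Trim12c, Trim34a and Trim21 fell with miR-294, Trim2 rose and Trim26 did not pass the test. Of the 292 tested genes with the element, 41.1% fell and 26.4% rose with miR-294, near the shares of all tested genes. The untested Trim5 also held it. The windows below show the element in capitals with 10 bases on either side, on the strand of the gene. Trim21 and Trim26 each held a second copy that overlaps the first, and only the first is in capitals. They are those of Trim5 and of the tested members with the element except Trim2, and they let the near copies Trim12a, Trim12c and Trim5 be compared. The window of Trim2, which rose, is not printed.
Trim12c: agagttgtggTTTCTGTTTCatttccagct
Trim12a: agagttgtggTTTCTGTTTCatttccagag
Trim5: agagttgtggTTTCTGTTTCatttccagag
Trim34a: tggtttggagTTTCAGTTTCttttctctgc
Trim21: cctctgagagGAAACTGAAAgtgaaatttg
Trim26: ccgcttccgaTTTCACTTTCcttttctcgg
In all but Trim21 the element reads on the opposite strand. The windows lie at chr7:104353359-104353388 for Trim12c, chr7:104315466-104315495 for Trim12a, chr7:104288136-104288165 for Trim5, chr7:104244457-104244486 for Trim34a, chr7:102565450-102565479 for Trim21 and chr17:36836976-36837005 for Trim26. Those of Trim12a and Trim5 were identical over 30 bases and each matched that of Trim12c at 28 of 30. A match is only a match of letters and does not show that a factor bound there.

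Other PRY-SPRY members also fell with miR-294, all but Trim35 at lower levels. Trim21, a receptor for antibody in the cytosol, went from 2.13 and 1.97 RPKM in CTR to 0.83 and 0.66 in miR-294 (-0.81, SE 0.101, adjusted p 1.75e-04), and stood at 1.76 and 2.06 in siMbd2 (-0.07, adjusted p 0.627). Trim16, which takes part in autophagy of damaged membranes, was at 2.84 and 3.03 RPKM in CTR, 1.38 and 1.04 with miR-294 and 3.18 and 3.66 with siMbd2. Its fall with miR-294 was -0.84 (adjusted p 2.12e-04), and the direct difference from siMbd2 was -1.002 (adjusted p 1.20e-04). Trim62, a regulator of epithelial cell polarity, fell from 3.48 and 2.84 RPKM to 1.33 and 0.96 (-0.96, adjusted p 1.62e-04), with 2.31 and 2.41 in siMbd2 (-0.30, adjusted p 0.0776). For these genes the miR-294 libraries lay below every other library. Trim7, which binds glycogenin, fell by 0.74 on the log2 scale with miR-294 (adjusted p 0.00242), and its siMbd2 difference of -0.28 did not pass. Trim35, at a mean of 41.9 RPKM over the 6 libraries, fell by 0.21 with miR-294 (adjusted p 0.0287). That call was lost in 8 of 15 alternative analyses, with adjusted p up to 0.128.

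In all, 16 PRY-SPRY members were tested, of which 2 rose and 9 fell with miR-294, with a median log2 difference of -0.47. These are 12.5% and 56.2%, against the 27.7% and 36.8% of all tested genes. The 18 tested members of the other classes held 7 that rose and 5 that fell. With siMbd2 the PRY-SPRY counts were 2 risen and 4 fallen (12.5% and 25%, against 19.5% and 14.9% of all genes). In the direct comparison 2 were higher and 10 lower in miR-294 (12.5% and 62.5%, against 21.9% and 35.5%). The risen members with miR-294 were Trim6 and Trim27. Trim27, a nuclear ligase and repressor of transcription, was at 42.6 and 36.7 RPKM in CTR, 64.4 and 62.1 with miR-294 and 58.9 and 59.2 with siMbd2. It rose with miR-294 (0.67, SE 0.0749, adjusted p 9.77e-05) and with siMbd2 (0.57, adjusted p 0.00127). The treatments differed by 0.10 (SE 0.0749, adjusted p 0.295). Trim26, a member encoded near the MHC genes, rose with siMbd2 from 25.9 and 24.0 to 34.3 and 32.9 RPKM (0.42, adjusted p 0.00237), while its miR-294 values of 28.2 and 27.8 did not pass against CTR (0.16, adjusted p 0.0534). Trim25, the ligase of the RNA sensor RIG-I, did not pass against CTR with either treatment. It was at 29.4 and 28.3 RPKM in CTR, 28.2 and 26.6 with miR-294 and 32.0 and 33.5 with siMbd2, and its direct difference was -0.25 (adjusted p 0.00944). That p was 0.0957 without miR-294 replicate 2, and the call was also lost without siMbd2 replicate 2. Trim61, a highly expressed TRIM gene not counted in the PRY-SPRY class, differed between the CTR libraries themselves, at 52.1 and 75.3 RPKM. It was at 47.4 and 50.9 with miR-294 and 49.6 and 50.3 with siMbd2. It did not pass with miR-294 (-0.35, adjusted p 0.0575) or siMbd2 (-0.32, adjusted p 0.108).

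**Figure D4:**
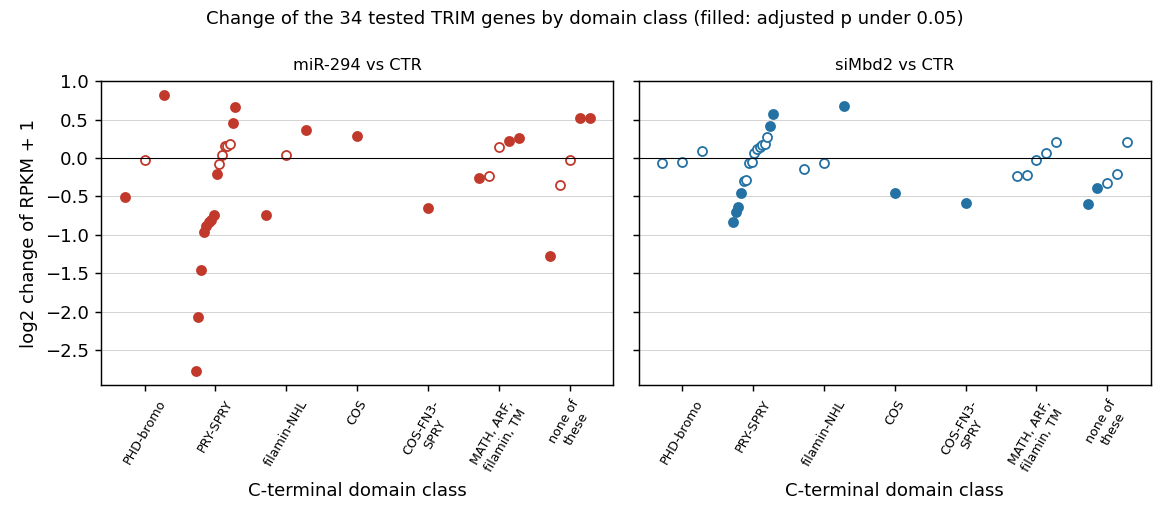
Difference in log2(RPKM + 1) of the tested TRIM members grouped by the domain at the end of the protein, for miR-294 against CTR and siMbd2 against CTR; each point is a gene and filled points passed the test. PRY-SPRY members reach down to -2.78 with miR-294, and the classes below them hold at most 5 tested members each.

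The chromatin members with a PHD finger and a bromodomain moved apart from one another. Trim28 (chr7:12999114-13031035, plus strand), the corepressor that KRAB zinc finger proteins bring to retroviral elements and imprinted loci, was at 388.3 and 332.6 RPKM in CTR, 640.8 and 633.2 with miR-294 and 385.5 and 381.0 with siMbd2. Both miR-294 libraries lay above all others. It rose with miR-294 by a ratio of 1.77 (log2 difference 0.82, SE 0.0742, adjusted p 3.11e-05) and did not pass with siMbd2 (0.09, adjusted p 0.365). The direct difference was 0.73 (adjusted p 8.62e-05). Trim24, a chromatin reader and coregulator of nuclear receptors, went down, from 50.3 and 52.0 RPKM in CTR to 35.2 and 36.2 in miR-294 (-0.51, SE 0.0563, adjusted p 9.15e-05), with 49.4 and 49.1 in siMbd2 (-0.05, adjusted p 0.499). Its direct difference was -0.45 (adjusted p 2.37e-04). Trim33, a partner of SMAD proteins in TGF-beta signalling, had 12.8 and 14.6 RPKM in CTR, 13.5 and 13.3 with miR-294 and 12.8 and 13.2 with siMbd2. Its groups overlapped, and its log2 differences were -0.03 (SE 0.0817, adjusted p 0.767) and -0.07 (adjusted p 0.543).

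Of 15 tested genes that work with TRIM28 in silencing, 7 rose and 3 fell with miR-294 (median log2 difference 0.12), or 46.7% and 20% against 27.7% and 36.8% of all tested genes. With siMbd2 3 rose and 1 fell, or 20% and 6.67% against 19.5% and 14.9%. Cbx1, which encodes a heterochromatin protein that TRIM28 binds, was at 103.6 and 112.5 RPKM in CTR and 183.7 and 188.0 in miR-294, and rose (0.78, adjusted p 1.30e-05). Uhrf1, needed to maintain DNA methylation, also rose (0.50, adjusted p 1.49e-04), as did Zfp809 (0.48, adjusted p 0.00120), the zinc finger protein that leads TRIM28 to a class of retroviruses. Chd3, a nucleosome remodeller of the NuRD complex, fell from 16.1 and 14.4 to 7.5 and 6.58 RPKM (-1.01, adjusted p 7.93e-05). None of these 4 genes passed with siMbd2. In that comparison Setdb1, the histone methyltransferase partner of TRIM28, rose (0.34, adjusted p 0.00364) and Cbx5 was the gene that fell (-0.30, adjusted p 0.00914); these names were chosen after their values were seen.

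At 3 members the treatments gave calls of opposite direction, a rise with miR-294 and a fall with siMbd2. Trim44 (chr2:102300119-102407828, minus strand), which lacks a RING finger and carries a ubiquitin-binding zinc finger like that of some deubiquitinases, was at 20.1 and 21.9 RPKM in CTR, 29.9 and 31.4 with miR-294 and 13.2 and 13.9 with siMbd2. The 3 groups did not overlap. It rose with miR-294 (0.53, SE 0.0713, adjusted p 2.65e-04), fell with siMbd2 (-0.59, adjusted p 9.34e-04) and was 2.26-fold higher in miR-294 than in siMbd2 (log2 difference 1.12, adjusted p 1e-05). Trim52 had the same order at a level near the limit for testing, with 1.12 and 0.98 RPKM in CTR, 1.92 and 1.99 with miR-294 and 0.54 and 0.60 with siMbd2. It rose with miR-294 (0.53, adjusted p 0.00105) and fell with siMbd2 (-0.38, adjusted p 0.0136), and the direct ratio was 3.43 (log2 difference 0.91, adjusted p 7.99e-05). The siMbd2 call of Trim52 was lost without either siMbd2 library, with adjusted p up to 0.0837. Trim54, a muscle RING finger protein that binds microtubules, stood at 6.23 and 4.91 RPKM in CTR, 6.97 and 7.04 with miR-294 and 3.63 and 3.89 with siMbd2. Its direct difference of 0.75 (adjusted p 5.21e-04) held in all 15 alternatives, whereas its rise with miR-294 (0.29, adjusted p 0.0411) had an adjusted p of 0.160 without CTR replicate 2 and was also lost without any 1 of the miR-294 or siMbd2 libraries, and its fall with siMbd2 (-0.46, adjusted p 0.0133) had 0.0885 without siMbd2 replicate 1 and was also lost without siMbd2 replicate 2.

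**Figure D5:**
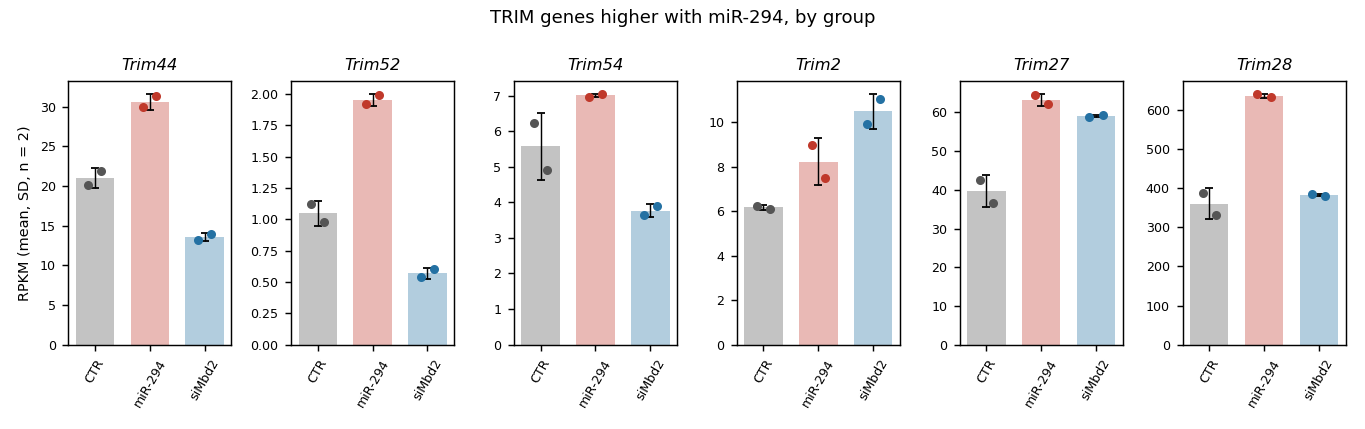
RPKM of Trim44, Trim52, Trim54, Trim2, Trim27 and Trim28 in each library of CTR, miR-294 and siMbd2, with group means and SDs. For Trim44, Trim52 and Trim54, both miR-294 libraries lie above and both siMbd2 libraries below the CTR libraries. Trim2, Trim27 and Trim28 do not have this order.

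The NHL-repeat members gave 3 different patterns. Trim2, a ligase of neurofilaments, was at 6.24 and 6.09 RPKM in CTR, 8.96 and 7.49 with miR-294 and 9.93 and 11.1 with siMbd2. It rose with siMbd2 (0.68, adjusted p 0.00186) and with miR-294 (0.36, SE 0.0995, adjusted p 0.0120), the latter not without miR-294 replicate 1 (adjusted p 0.117). Trim3, its closest relative, fell with miR-294 from 15.8 and 13.0 to 8.43 and 7.92 RPKM (-0.74, adjusted p 3.49e-04) and did not pass with siMbd2 (-0.15, adjusted p 0.309). Trim32, known from a muscular dystrophy, had log2 differences of 0.04 and -0.06, and neither passed.

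Among the remaining classes, Trim56 had the largest fall. This ligase of the cytosolic DNA sensing route was at 9.5 and 9.12 RPKM in CTR, 3.23 and 3.27 with miR-294 and 7.79 and 8.06 with siMbd2. It fell with miR-294 (-1.28, SE 0.0792, adjusted p 5.66e-06), did not pass with siMbd2 (-0.21, adjusted p 0.0727), and differed directly by -1.07 (adjusted p 1.96e-05). Trim36, which acts on microtubules, fell with both treatments, from 2.96 and 3.12 RPKM to 1.53 and 1.62 in miR-294 (-0.65, adjusted p 3.26e-04) and 1.79 and 1.58 in siMbd2 (-0.59, adjusted p 0.00231). Its direct difference was -0.06 (adjusted p 0.599). Trim37, which limits centriole assembly, fell by 0.26 on the log2 scale with miR-294 (adjusted p 0.00679, and 0.0711 without miR-294 replicate 2). Trim59, a membrane-anchored member, had 30.2 and 36.3 RPKM in CTR, 38.4 and 41.9 with miR-294 and 28.3 and 28.2 with siMbd2. Its rise with miR-294 (0.27, adjusted p 0.0278) was lost in 5 alternatives, with adjusted p up to 0.174, while its direct difference of 0.49 (adjusted p 0.00185) was not. Trim23, which ends in an ARF domain, rose by 0.22 with miR-294 (adjusted p 0.0290), a call lost in 6 alternatives, with adjusted p up to 0.145. Trim8, Trim11, Trim13, Trim39, Trim41 and Trim45 did not pass against CTR with either treatment.

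The members under 1 RPKM were read from a fit with no lower limit, and the read numbers behind these low values are unknown. Of these 13, 3 were higher and 5 lower with miR-294, in a fit where 26.1% of all 13742 genes were higher and 33.4% lower. Trim65 went from a mean of 1.5 to 0.335 RPKM (-0.91, adjusted p 5.16e-05), Trim67, a member of the nervous system, from 0.980 to 0.165 (-0.76, adjusted p 1.01e-04), and Trim63, the muscle relative of Trim54, from 0.505 to 1.10 (0.48, adjusted p 0.00202). With siMbd2, 3 of the 13 were lower and 0 higher by limma, and 0 were higher at an unadjusted p under 0.05 either; over all genes of that fit 16.5% were higher and 13.5% lower. Trim43a, Trim43b and Trim43c, genes of the early embryo, share 27.9% to 40.2% of their 50-base stretches and cannot be told from each other with certainty. The counts above rest partly on them: Trim43a was among those higher with miR-294, and Trim43c among those lower with miR-294 and with siMbd2.

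The mature sequence of miR-294 is printed from RefSeq with its seed (bases 2 to 8) in capitals, since the mimic stands for this microRNA.
mmu-miR-294-3p: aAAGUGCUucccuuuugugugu
A microRNA pairs through its seed with sites in the 3′ UTR, where the match on the mRNA reads AGCACTT. The 8-base form has an A after these letters, and the other 7-base form is GCACTTA. Each gene was counted once, under its longest match. In the longest annotated 3′ UTR (GENCODE vM21, GRCm38) of the 34 tested members, 0 had the 8-base form, 6 had the 7-base seed match and 4 the other 7-base form, so 29.4% had some match. Of 10806 tested genes with a 3′ UTR, 3.68%, 13.9% and 3.31% fell in these kinds, 20.9% in all. Among members with the 7-base seed match, Trim12c, Trim36 and Trim56 fell with miR-294, Trim2 and Trim6 rose and Trim8 did not pass. Over all tested genes with the 7-base seed match 49.2% fell and 16.7% rose. Of the 24 members with no match, 11 fell and 6 rose, or 45.8% and 25%, against 33.4% and 30.8% of all genes with no match. Trim47, Trim12a, Trim34a, Trim62, Trim16 and Trim21 were among those that fell with no match. The sites of genes that moved in different directions are shown with the match in capitals.
Trim12c: caacaagcctgAGCACTTgagttcaattcc
Trim56, the first site: ctcctctgtaaAGCACTTgcctagaactca
Trim56, the second site: cctgttatcccAGCACTTgggaagctgagg
Trim6: gtgttacattcAGCACTTtatgtttgctga
Trim2: aatgaatgtacAGCACTTccattaactttt
The matches lie at chr7:104339623-104339629 in Trim12c, chr5:137112053-137112059 and chr5:137111346-137111352 in Trim56, chr7:104233902-104233908 in Trim6 and chr3:84160953-84160959 in Trim2. All are on the minus strand except that of Trim6. A match does not show that the microRNA bound there, and its lack in these windows says nothing about other parts of the mRNA.

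Several PRY-SPRY members and Trim56 act in the route from RNA and DNA sensors to interferon, so the genes of that route were read alongside. Of 17 tested, 1 rose and 10 fell with miR-294 (median log2 difference -0.43), or 5.88% and 58.8% against 27.7% and 36.8% of all tested genes. With siMbd2 5 rose and 2 fell, or 29.4% and 11.8% against 19.5% and 14.9%. In the direct comparison 12 were lower in miR-294 (70.6%, against 35.5% of all genes), and 0 were higher by limma, at an adjusted or at an unadjusted p under 0.05. Mb21d1, which encodes the DNA sensor cGAS, went from 3.71 and 4.29 RPKM in CTR to 0.79 and 0.94 in miR-294 (-1.42, adjusted p 9.06e-06), with 3.11 and 3.10 in siMbd2 (-0.28, adjusted p 0.0548). Isg15, a ubiquitin-like modifier induced by interferon, was at 2.17 and 2.57 RPKM in CTR, against 0.47 and 0.35 with the mimic and 5.50 and 5.07 with the siRNA. A fall was called with miR-294 (-1.26, adjusted p 1.83e-05) and a rise with siMbd2 (0.90, adjusted p 7.65e-04). Irf9, the DNA-binding part of the interferon-activated factor, fell with miR-294 (-1.20, adjusted p 6.75e-06) and did not pass with siMbd2 (0.12, adjusted p 0.252). Ikbke, a kinase of the route, fell with miR-294 (-0.47, adjusted p 0.00672) and rose with siMbd2 (0.97, adjusted p 9.34e-04). The gene that rose with miR-294 was Ddx58, which encodes the RNA sensor RIG-I, at 14.3 and 15.9 RPKM in CTR, 29.1 and 29.7 with miR-294 and 25.1 and 27.3 with siMbd2. It was named after its values were seen.

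The enzymes that hand ubiquitin to RING ligases changed in both directions. Of 16 tested, 7 rose and 4 fell with miR-294, or 43.8% and 25% against 27.7% and 36.8% of all tested genes. With siMbd2 2 rose and 1 fell, or 12.5% and 6.25% against 19.5% and 14.9%. Ube2e2 fell from 11.2 and 10.6 to 4.03 and 3.81 RPKM with miR-294 (-1.27, adjusted p 6.88e-06) and less with siMbd2 (-0.57, adjusted p 0.00176). Ube2l6, which serves ISG15 conjugation, fell with miR-294 (-1.10, adjusted p 3.30e-04), as did Ube2w (-0.68, adjusted p 6.87e-04). Ube2v1, which works with Ube2n to build chains used in signalling, rose (0.63, adjusted p 7.30e-05). Of 6 tested genes in a list of TRIM proteins and close partners without Trim in the symbol, 3 rose and 1 fell with miR-294 (50% and 16.7%, against 27.7% and 36.8% of all tested genes). Bspry rose with miR-294 (0.40, adjusted p 0.00481) and siMbd2 (0.72, adjusted p 0.00114), Fsd1 fell with miR-294 (-0.30, adjusted p 0.0211), Pml, the scaffold of nuclear bodies, rose with miR-294 (0.21, adjusted p 0.0179), and Mid1, a microtubule-binding ligase, rose with both (0.23, adjusted p 0.0390, and 0.27, adjusted p 0.0349). Pml was named after its values were seen. Mid1ip1, which binds MID1 and is not itself a TRIM protein, fell with siMbd2 (-0.55, adjusted p 0.00827).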

How the data were processed

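Messenger RNA of 6 libraries in 3 groups of 2 was measured by paired-end Illumina sequencing of Trizol RNA. Per the file headers, the deposited values are RPKM for each gene and library, and the authors also deposited a ratio (fold) of treated over CTR, which was not used here. The submitters' processing notes name CASAVA 1.7, STAR 2.3.0, Cufflinks and mm10. No source used here gives the step each tool did, the Cufflinks version or the annotation. RPKM has no read counts, so count-based tests and counting errors were not possible.

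On log2(RPKM + 1) values, after dropping genes averaging under 1 RPKM, 3 group means were estimated with limma 3.58.1, run in R 4.3.3 using an intensity trend, 3 residual and 5.38 prior degrees of freedom. Tests were two-sided, with Benjamini-Hochberg adjustment over the 11428 genes, and called under 0.05. The fit was tested on simulated data. The members and gene lists were chosen with earlier results of these data known. Values in each library are given for the 8 highest and 8 lowest called members with miR-294, the 5 highest and lowest with siMbd2, the 4 highest and lowest in the direct comparison, the 5 most abundant and the PHD-bromodomain members, and selected others; up to 4 genes per related list are named by size of change, and Setdb1, Cbx5, Ddx58 and Pml were added after their values were seen. Other pseudocounts, minimum levels, scalings, no intensity trend, only the groups compared, a replicate block and each library left out were tried. Symbols were matched to GENCODE vM21 and RefSeq (GRCm38.p6). A search for RING and B-box patterns was not run, since no protein sequences were used here. 1 further entry is not reported here.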

Additional observations from a re-analysis of the deposited data

How the results depend on the processing

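Across 15 alternatives no tested member changed the direction of a called difference, and 17 of 23 calls with miR-294, 8 of 11 with siMbd2 and 16 of 24 in the direct comparison passed under every alternative run. With a minimum mean of 5 RPKM, which tests fewer genes, 7 members fell with miR-294 and 4 with siMbd2. Leaving out each library in turn gave 6 to 9 risen and 12 to 15 fallen members with miR-294, 3 to 10 and 5 to 12 with siMbd2, and 6 to 9 and 10 to 17 in the direct comparison. The extremes were 10 risen with siMbd2 without CTR replicate 1, 5 fallen with siMbd2 without siMbd2 replicate 2 and 10 lower directly without miR-294 replicate 2; the cause was not tested. The members' median difference with miR-294 turned from -0.05 to 0.016 with quantile normalization and 0.016 when scaled by the median of ratios. It was 0.044 with the minimum of 5, over the smaller set of 25 members. Quantile normalization also turned the median of all genes to 0.016 with miR-294 and 0.021 in the direct comparison, a shift of 0.102 there, and its direct split was 3259 higher and 3138 lower genes against 2500 and 4061. With the replicate number as a block, 10 members rose and 15 fell with miR-294, 4 and 10 with siMbd2, and 8 and 16 directly. The deviations of same-numbered libraries correlated over genes at 0.119 for CTR with miR-294, 0.132 for CTR with siMbd2 and 0.0218 for miR-294 with siMbd2, and with 2 numbers the pairing is only a shared label. Depth is unknown, which limits what can be said of members under 1 RPKM.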
